A study of Mus musculus with 42 samples.

Results

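The segregation of chromosomes in mitosis depends on a set of proteins that are built, used and destroyed once per cell cycle. Mitotic kinases such as Aurka and Plk1 drive entry and build the spindle, the kinetochore links each centromere to spindle microtubules, and the spindle checkpoint holds back the anaphase-promoting complex until every kinetochore is attached. The anaphase-promoting complex then tags securin for destruction, and separase opens the cohesin rings that hold sister chromatids together. Most genes of this set are transcribed in G2 and M phase of cycling cells and are held low in cells that have left the cycle, as muscle precursors do when they fuse into fibres. In resting muscle, satellite cells are largely quiescent. A list of 39 such genes was read across 3 RNA-seq groups, in 7 functional classes. The genes were chosen by symbol in the deposited count files, and 38 of the 39 symbols matched 1 of 24466 rows. The symbol Sgol2 has no row of its own. Its RefSeq synonym Sgol2a has one, and that row is given apart and is not counted among the 38.

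The groups were iPax7 cells grown with doxycycline (+Dox, 3 libraries), iPax7 cells 3 days after Dox was withdrawn (-Dox, 2 libraries) and satellite cells (3 libraries). iPax7 cells are muscle precursors made from a single mouse embryonic stem cell line that carries a Dox-inducible Pax7 transgene. They were sorted from embryoid bodies as PDGFαR+ Flk-1- cells, and were grown in serum and FGF with 0.75 µg/ml Dox. The -Dox cells stayed in the same serum and FGF medium without the inducer. Satellite cells were sorted from skeletal muscle of Pax7-ZsGreen reporter mice and were labelled as in vivo. The strain background, age and sex of the mice, and how many mice or cultures stand behind the libraries, are not given in the sources used here, so the p-values measure only the spread between these libraries.

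Pax7, the factor that Dox induces, had 12759, 14129.7 and 11610.2 normalized counts in the +Dox libraries, 221 and 269.5 in -Dox and 8504, 3926 and 5456 in satellite cells. Counts on genes ran from 39010958 to 54674619 per library. Reads that aligned to several places made up 7.11% to 7.60% of the iPax7 libraries and 23.6% to 30.7% of the satellite cell libraries. Muscle fibre markers summed to 122 to 139 CPM (counts scaled to library size) in +Dox and 40506 to 41197 in -Dox, and all 11 were called higher in -Dox. Myod1, which marks satellite cells outside quiescence, had 20392, 26074 and 22421 normalized counts in satellite cells. It had 161, 118 and 321 in +Dox and 115 and 164 in -Dox. Its level was low in both iPax7 groups, so it does not read quiescence across the groups. Satellite cell markers (10 genes) summed to 12547 to 21225 CPM in satellite cells and 1855 to 2444 in +Dox. The satellite cell libraries also held 321 to 477 CPM of 8 endothelial markers, 51.8 to 210 CPM of 8 blood cell markers, 1271 to 2673 CPM of 8 mesenchymal markers and 135 to 207 CPM of 6 Schwann cell markers. In the iPax7 libraries the same sums reached at most 7.24, 11.5, 287 and 13.8 CPM. The part of these other cells in any difference against satellite cells was not tested. In bulk RNA, fewer cells in mitosis and less RNA per such cell cannot be told apart, and the source of the cells cannot be told apart from the satellite cell group.

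Promoter sequence was read first, because genes of this set move together through the cell cycle. The elements best known from such promoters are the CCAAT box, bound by NF-Y, and the cell cycle genes homology region (CHR), bound by the MuvB complexes. RefSeq promoter windows (GRCm38.p6, 250 bases before to 50 after the start) were given for 32 of the 38 genes, in 35 windows. The windows of Aurkb, Spc24, Zwilch, Incenp, Tpx2 and Cdc25c were not used here. The letters CCAAT, on either strand, stood in 28 of the 35 windows (80%), against 37.4% of all 32851 windows and 37.3% of the windows of genes tested for expression. The CHR letters TTTGAA or TTCGAA, on either strand, stood in 20 (57.1%), against 19.2% and 14.1%. Both stood in 18 (51.4%), against 7.52% and 5.61%. The E2F letters TTCCCGC or TTCGCGC stood in 4 (11.4%), against 6.0% and 10.2%. None of these motifs contains another, and TTCGAA is its own reverse complement. A match in a window is a description and not evidence of a bound site.

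Stretches of 130 bases before to 20 after the start are printed for 5 genes of different classes that hold both elements, and then for Zwint and Fzr1, which had the smallest log2 fold changes after withdrawal. Capitals mark CCAAT and the CHR letters on either strand, and all are written 5′ to 3′ on the strand of the gene.
Cdca8 (chr4:124936898-124937047, minus strand): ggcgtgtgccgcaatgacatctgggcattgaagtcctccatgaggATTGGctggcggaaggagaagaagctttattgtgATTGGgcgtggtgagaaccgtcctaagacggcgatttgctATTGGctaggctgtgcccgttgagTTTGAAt
Bub1 (chr2:127831840-127831989, minus strand): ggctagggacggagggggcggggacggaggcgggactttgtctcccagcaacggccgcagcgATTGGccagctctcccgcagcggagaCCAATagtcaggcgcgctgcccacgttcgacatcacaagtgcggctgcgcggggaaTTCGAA
Cenpf (chr1:189688067-189688216, minus strand): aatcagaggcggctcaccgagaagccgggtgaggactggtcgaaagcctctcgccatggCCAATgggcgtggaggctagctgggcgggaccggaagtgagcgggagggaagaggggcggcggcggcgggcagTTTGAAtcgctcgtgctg
Espl1 (chr15:102296163-102296312, plus strand): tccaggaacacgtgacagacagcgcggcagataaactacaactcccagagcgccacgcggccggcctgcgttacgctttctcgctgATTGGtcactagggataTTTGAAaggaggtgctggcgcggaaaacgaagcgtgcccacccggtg
Cdc20 (chr4:118437324-118437473, minus strand): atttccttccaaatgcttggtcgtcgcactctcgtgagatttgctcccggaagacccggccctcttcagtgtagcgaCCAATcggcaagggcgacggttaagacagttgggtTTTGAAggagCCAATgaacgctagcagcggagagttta
Zwint (chr10:72654716-72654865, plus strand): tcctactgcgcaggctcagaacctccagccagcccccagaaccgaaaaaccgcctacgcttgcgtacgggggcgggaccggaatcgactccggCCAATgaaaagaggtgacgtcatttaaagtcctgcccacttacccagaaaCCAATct
Fzr1 (chr10:81378351-81378500, minus strand): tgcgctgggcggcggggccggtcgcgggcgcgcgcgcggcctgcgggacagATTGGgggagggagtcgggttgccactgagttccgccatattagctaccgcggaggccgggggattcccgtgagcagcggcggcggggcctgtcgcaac
In the windows shown, the CHR letters of Cdca8, Bub1 and Cenpf lay just after the start and those of Espl1 and Cdc20 just before it. Zwint held CCAAT at 2 places and Fzr1 held it once, and neither showed CHR letters in these bases. The letters did not follow the calls gene by gene. Bub3, whose change in -Dox was close to that of Fzr1, held both elements in each of its 2 windows. Over the whole windows, CHR letters stood in 15 of the 23 genes called lower in -Dox and in 4 of the 9 not called. The 8 called genes without them were Birc5, Mad2l1, Cenpe, Cenph, Cenpi, Cenpp, Cenpq and Pttg1. Genes not called were not all unchanged. Of those with CHR letters, Ttk, Cdc25b and Cenpm had log2 fold changes of -4.36, -2.93 and -2.82, and Bub3 had -0.54. Of those without, Nuf2, Cenpk and Nek2 had -4.55, -2.42 and -1.83, and Fzr1 and Zwint had -0.47 and -0.14.

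Most of the 38 genes were lower after Dox was withdrawn. They took up 0.386% to 0.4004% of all counts on genes in the +Dox libraries, 0.0972% to 0.0976% in -Dox and 0.0377% to 0.0468% in satellite cells. In the quasi-likelihood fit of edgeR, with p-values adjusted by Benjamini-Hochberg over the 14836 genes tested, 29 of the 38 were lower in -Dox than in +Dox at an adjusted p under 0.05, where 3.04% of all genes tested were lower. None was higher, where 4.66% of all genes were. None was higher at an unadjusted p under 0.05 or by DESeq2 either, and 34 were lower at an unadjusted p under 0.05 and 32 by DESeq2. No share over all genes tested is given for these other criteria, here or below, so their counts cannot be set against a background. The median log2 fold change of the 38 genes was -3.32, from -5.20 for Bub1b to -0.14 for Zwint, and the median of all genes tested was -0.0049. For all 38, every -Dox library lay below every +Dox library, which was so for 22.7% of the genes tested. The count of 29 rests on both -Dox libraries: it was 10 without the first, 13 without the second, and 18 to 21 with any 1 +Dox library left out, while the median stayed between -3.34 and -3.26. The 9 genes called with any 1 library left out were Tpx2, Aurkb, Cdca8, Bub1b, Mad2l1, Spc25, Sgol1, Espl1 and Cdc20.

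In satellite cells nearly all of the genes were lower than in +Dox. There, 36 of the 38 were lower (all genes tested: 19.8%), none was higher (all genes: 25.1%; none at an unadjusted p under 0.05 or by DESeq2), and the median log2 fold change was -3.93 against 0.17 for all genes. The 2 that were not called were Cenpq and Pttg1. For the other 36, every satellite cell library lay below every +Dox library, against 26.3% of all genes. Against -Dox, 11 were lower (all genes: 18.1%), 2 were higher (all genes: 20.9%) and 25 were not called, with a median of -0.85 against 0.23. Every satellite cell library lay below both -Dox libraries for 18 genes (all genes: 30.6%) and above them for 2 (all genes: 33.7%). With any 1 library left out, 33 of the 36 calls against +Dox held (not those of Cdc25b, Cenpk and Fzr1), and 6 of the 13 against -Dox, those of Bub3, Cenph, Ndc80, Zwint, Sgol1 and Espl1. Each group stands in 2 of these 3 comparisons, so they share libraries.

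**Figure D1:**
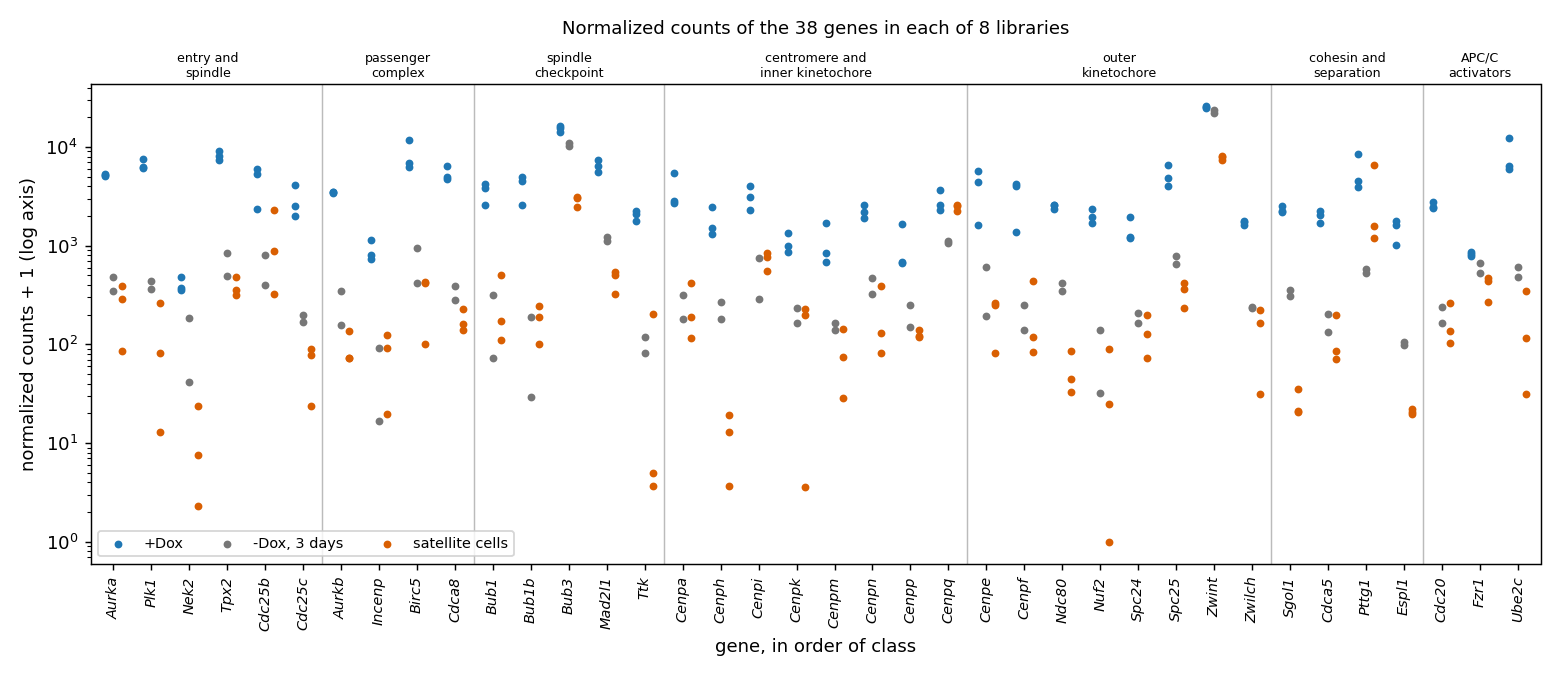
Normalized counts plus 1 (log axis) of the 38 genes by functional class, with 1 point per library: +Dox (3), -Dox (2) and satellite cells (3). Both -Dox points lie below all +Dox points for every gene, closest for Zwint, Bub3 and Fzr1, and satellite cell points of Cenpq and Pttg1 reach the +Dox range.

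The first class holds the regulators of mitotic entry and the spindle, and 4 of its 6 genes were lower in -Dox. Plk1, the kinase that acts at centrosomes and kinetochores, changed most, with 6056, 6279 and 7544 normalized counts in +Dox, 438 and 365 in -Dox and 265, 81.8 and 11.9 in satellite cells. Its groups did not overlap, and its log2 fold change in -Dox was -4.04, standard error 0.97, adjusted p = 0.0355. Plk1 was not called between satellite cells and -Dox (-1.75, standard error 0.81, adjusted p = 0.114). Satellite cell libraries lay below both -Dox libraries for 30.6% of all genes tested. Aurka, the centrosome kinase, fell from a mean of 5189.6 ± 166 (SD, n = 3) to 412 ± 97 (SD, n = 2) normalized counts (-3.65, standard error 0.61, adjusted p = 0.00616). Tpx2, which activates Aurka on spindle microtubules, fell from 8185 ± 836 (SD, n = 3) to 666 ± 247 (SD, n = 2) (-3.62, standard error 0.38, adjusted p = 0.000503). Cdc25c, a phosphatase that activates the mitotic cyclin-dependent kinase, fell from 2865 ± 1095 (SD, n = 3) to 183 ± 22.7 (SD, n = 2) (-3.96, standard error 0.65, adjusted p = 0.00553). In satellite cells these 3 genes had means of 253 ± 154 (SD, n = 3), 384 ± 86.7 (SD, n = 3) and 63.4 ± 35.6 (SD, n = 3), each lower than in +Dox and not called against -Dox.

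Nek2 and Cdc25b did not pass the test in -Dox. Nek2, a kinase of centrosome separation, had 352, 373 and 479 in +Dox, 40.4 and 186 in -Dox and 1.32, 22.8 and 6.59 in satellite cells. The 2 -Dox libraries stood far apart, and the log2 fold change was -1.83, standard error 1.08, adjusted p = 0.379. Nek2 was called lower in satellite cells than in -Dox (-3.45, standard error 1.06, adjusted p = 0.029), on raw counts of 1 to 17 per satellite cell library. Cdc25b, a phosphatase that acts at mitotic entry, had 5967, 5321 and 2340.3 in +Dox, 394 and 796 in -Dox and 2321, 326 and 878 in satellite cells. The log2 fold change in -Dox was -2.93, standard error 0.81, adjusted p = 0.0612. The first satellite cell library came close to the lowest +Dox library, and Cdc25b was lower in satellite cells by -1.95, standard error 0.67, adjusted p = 0.0383, one of the smaller changes of the set.

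All 4 subunits of the chromosomal passenger complex were lower in both other groups than in +Dox. This complex of the kinase Aurkb with Incenp, Birc5 (survivin) and Cdca8 (borealin) corrects faulty attachments at centromeres. The log2 fold changes in -Dox lay close together, from -4.07 for Incenp to -3.60 for Birc5. Incenp, the scaffold, had 739, 1136 and 795 in +Dox, 90.1 and 15.7 in -Dox and 124, 18.8 and 91 in satellite cells (-4.07, standard error 1.03, adjusted p = 0.0433 in -Dox). Birc5 had 6229, 6903 and 11647, 948 and 417 and 423, 428 and 100.2 in the same order (-3.60, standard error 0.70, adjusted p = 0.0137). Aurkb had 3526, 3391 and 3476 in +Dox, 158 and 343 in -Dox and 136, 72.4 and 71.2 in satellite cells. Cdca8 had 4699, 4948 and 6376, 281 and 390.5 and 159, 227 and 138. Aurkb and Cdca8 were also lower in satellite cells than in -Dox, by -1.43, standard error 0.43, adjusted p = 0.0258 and -0.94, standard error 0.33, adjusted p = 0.0474. Incenp and Birc5 overlapped between these 2 groups.

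The spindle checkpoint class split. Bub1b, which inhibits Cdc20 in the mitotic checkpoint complex, changed more than any other gene of the set in -Dox. It had 4496, 4933 and 2607 in +Dox, 28.5 and 189 in -Dox and 100.1, 243 and 189.9 in satellite cells, and its change on the log2 scale in -Dox was -5.20, standard error 0.86, adjusted p = 0.00598. Its 2 -Dox libraries also differed most of all members, 6.45-fold after 1 was added to each normalized count. Bub1, the kinase that brings the checkpoint to kinetochores, fell from a mean of 3566 ± 856 (SD, n = 3) to 195 ± 174 (SD, n = 2) (-4.19, standard error 0.86, adjusted p = 0.0178). Mad2l1, the checkpoint protein that binds Cdc20, had 5519, 6424 and 7449.7 in +Dox, 1102 and 1223 in -Dox and 545, 326 and 506 in satellite cells. It fell by less than Bub1 and Bub1b in -Dox (-2.48, standard error 0.34, adjusted p = 0.00239) and was lower again in satellite cells than in -Dox (-1.34, standard error 0.31, adjusted p = 0.00762).

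Bub3 and Ttk did not pass in -Dox, with changes of very different size. Bub3, a small WD-repeat partner of both Bub1 and Bub1b that also has roles outside mitosis, had 14198, 15642 and 16481 in +Dox, 10941 and 10312 in -Dox and 2438, 3041 and 3143 in satellite cells. It stayed within 1.45-fold of +Dox on average after withdrawal (-0.54, standard error 0.24, adjusted p = 0.228) and was 3.7-fold lower in satellite cells than in -Dox (-1.89, standard error 0.23, adjusted p = 0.000334). Ttk, the kinase that starts checkpoint signalling, had 2270.0, 1757 and 2099 in +Dox and 118 and 81.2 in -Dox, about 20.5-fold less on average, and the log2 change was -4.36, standard error 1.53, adjusted p = 0.126. Its satellite cell libraries held 201, 2.68 and 3.96, so that 1 library stood far above the other 2, and the fit shares 1 spread per gene across groups.

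**Figure D2:**
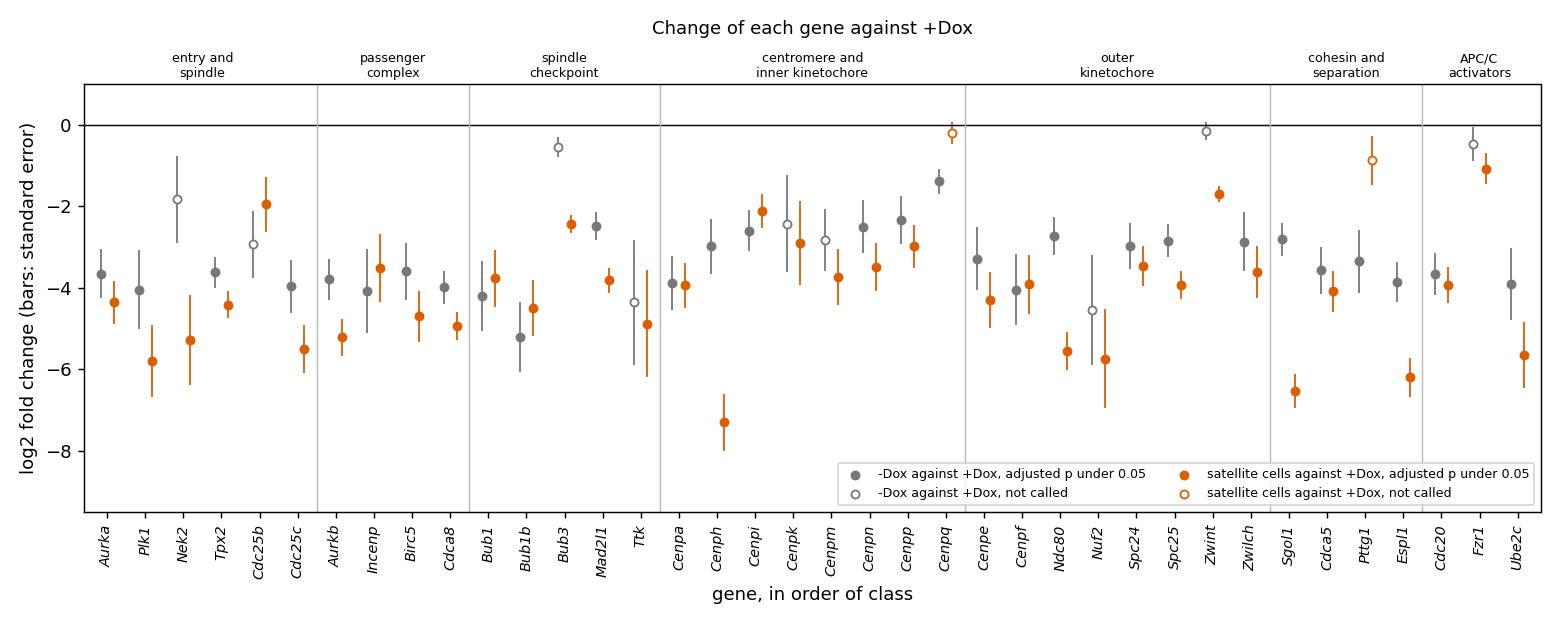
Log2 fold change against +Dox with its standard error, for -Dox (grey) and satellite cells (orange), by class; filled points had an adjusted p under 0.05. In -Dox, Bub3, Zwint and Fzr1 lie near 0 while most genes lie between -2 and -5; in satellite cells only Cenpq and Pttg1 are open points.

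Of the 8 genes of the centromere and inner kinetochore, 6 were lower in -Dox and 7 in satellite cells than in +Dox. Cenpa, the histone H3 variant that marks centromeres, changed most in -Dox, with 2729, 2866 and 5399.9 in +Dox, 182 and 317 in -Dox and 413, 115 and 189 in satellite cells (-3.88, standard error 0.66, adjusted p = 0.00706 in -Dox). The other members belong to the constitutive centromere-associated network, which bridges Cenpa chromatin and the outer kinetochore. Cenpi, Cenpn and Cenpp had log2 fold changes in -Dox of -2.59, -2.50 and -2.33, and the adjusted p of Cenpn was just under the threshold (0.05 when rounded). Cenpk had 871, 993 and 1339, 234 and 164 and 2.63, 229 and 199 in +Dox, -Dox and satellite cells. Cenpm had 688, 839.7 and 1698, 165 and 139 and 73.7, 141 and 27.7. Neither passed the test in -Dox (-2.42, standard error 1.19, adjusted p = 0.279 for Cenpk and -2.82, standard error 0.77, adjusted p = 0.0564 for Cenpm), although their -Dox libraries lay below all +Dox libraries.

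Cenph and Cenpq stood at opposite ends in satellite cells. Cenph had 1315, 1515 and 2456 normalized counts in +Dox, 267 and 178 in -Dox and 18.4, 2.68 and 11.9 in satellite cells, or 2 to 14 raw counts per satellite cell library. It changed more than any other gene of the set against +Dox (-7.31, standard error 0.71, adjusted p = 7.41e-05) and was lower than in -Dox by -4.32, standard error 0.66, adjusted p = 0.000953. Cenpq had 2285, 2559.9 and 3653 in +Dox, 1115 and 1054 in -Dox and 2536, 2244 and 2602 in satellite cells. Its -Dox libraries were close together and the lowest, and its satellite cell libraries lay at the low end of the +Dox range, 2 of them inside it and the second just below it. Cenpq thus was lower in -Dox (-1.39, standard error 0.32, adjusted p = 0.0279), did not pass between satellite cells and +Dox (-0.20, standard error 0.27, adjusted p = 0.567), and was higher in satellite cells than in -Dox (1.18, standard error 0.31, adjusted p = 0.015). With the first or the second -Dox library left out, the last value was 1.22 (adjusted p = 0.0978) or 1.09 (adjusted p = 0.132).

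In the outer kinetochore, 6 of 8 genes were lower in -Dox and all 8 in satellite cells than in +Dox. Ndc80, Nuf2, Spc24 and Spc25 form the NDC80 complex, which grips microtubules. Nuf2 had the largest change of the class in -Dox but did not pass the test, with 1953, 1694 and 2374 in +Dox, 31.2 and 140.3 in -Dox and 0, 24.1 and 88.4 in satellite cells (-4.55, standard error 1.36, adjusted p = 0.0785). No count of Nuf2 was recorded in the first satellite cell library, and a count of 0 allows up to 3 counts at its depth of 39010958 counts. Ndc80 had 2599.7, 2357 and 2559, 346 and 414 and 31.6, 84.4 and 43.5 in the same order and was lower in satellite cells than in -Dox (-2.83, standard error 0.44, adjusted p = 0.00104). Spc25 had 4031, 4796 and 6597, 644 and 794 and 413, 363 and 233 (-1.09, standard error 0.35, adjusted p = 0.0329 against -Dox). Spc24 fell from a mean of 1460.1 ± 415 (SD, n = 3) in +Dox to 185 ± 31.8 (SD, n = 2) in -Dox (-2.98, standard error 0.57, adjusted p = 0.0125).

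Cenpe, the kinesin that carries chromosomes to the spindle equator, Cenpf, a large coiled-coil protein of the fibrous corona, and Zwilch, a subunit of the complex that recruits dynein and checkpoint proteins, were all lower in -Dox, with log2 fold changes of -3.29, -4.04 and -2.87. Zwint, which joins the outer kinetochore scaffold to that complex, did not follow them. It had 24831, 25419 and 25907 in +Dox, 23889.7 and 22109.8 in -Dox and 7451, 7849.5 and 8161 in satellite cells. Per kilobase of exon, Zwint and Bub3 had the highest mean levels of all members in both iPax7 groups, with 5725 and 7513 normalized counts per kb in +Dox and 5187 and 5171 in -Dox, where the next, Ube2c in +Dox and Mad2l1 in -Dox, had 3170 and 528. The change of Zwint in -Dox was small (-0.14, standard error 0.21, adjusted p = 0.8) and its fall against -Dox in satellite cells was not (-1.56, standard error 0.21, adjusted p = 0.000507). Zwint is also known from neurons, and whether a role outside mitosis bears on its level in these cells was not tested.

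All 4 matched genes of cohesin protection and sister separation were lower in -Dox. Sgol1, shugoshin, shields centromeric cohesin until anaphase, and Cdca5, sororin, stabilizes cohesin on replicated chromatids. Sgol1 changed least of the class in -Dox, with 2511, 2245 and 2195 in +Dox, 307 and 354 in -Dox and 34.2, 20.1 and 19.8 in satellite cells. It was lower in satellite cells than in -Dox by -3.74, standard error 0.39, adjusted p = 0.000154, on 15 to 26 raw counts per library. Espl1, separase, changed most in -Dox, with 1767, 1622 and 1017, 97.4 and 105 and 19.7, 18.8 and 21.1 (-3.86, standard error 0.50, adjusted p = 0.00178 in -Dox and -2.34, standard error 0.44, adjusted p = 0.00272 in satellite cells against -Dox). Its satellite cell libraries were close to each other and far below both -Dox libraries. Cdca5 fell from a mean of 1989 ± 271 (SD, n = 3) to 168 ± 48.7 (SD, n = 2) (-3.57, standard error 0.58, adjusted p = 0.00539). The row Sgol2a, counted apart, had 1379.9, 2233 and 1422, 187 and 120.0 and 286, 134 and 64.6 (-3.45, standard error 0.69, adjusted p = 0.0159 in -Dox).

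Pttg1, securin, which inhibits separase until anaphase, went another way from Espl1 in satellite cells. Pttg1 had 3955, 4523 and 8563 normalized counts in +Dox, 534 and 583 in -Dox and 1568, 1198 and 6568 in satellite cells. It was lower in -Dox (-3.35, standard error 0.78, adjusted p = 0.0305), did not pass between satellite cells and +Dox (-0.87, standard error 0.60, adjusted p = 0.266) and was higher in satellite cells than in -Dox (2.48, standard error 0.74, adjusted p = 0.0257). The third satellite cell library alone reached the +Dox range. Without it Pttg1 was lower in satellite cells than in +Dox, by -2.03 (adjusted p = 0.00629), and its log2 fold change against -Dox was 1.31 (adjusted p = 0.0425). Without the first or the second -Dox library the latter was 2.41 (adjusted p = 0.135) or 2.49 (adjusted p = 0.124).

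Of the activators and the E2 enzyme of the anaphase-promoting complex, Cdc20 and Ube2c were lower in -Dox and Fzr1 was not called. Cdc20 activates the complex in mitosis and fell from a mean of 2536 ± 212 (SD, n = 3) to 202 ± 51.5 (SD, n = 2) (-3.65, standard error 0.51, adjusted p = 0.0026). Ube2c, the E2 that starts ubiquitin chains on its substrates, had 5947, 6358 and 12424, 483 and 614 and 348, 30.8 and 116 in +Dox, -Dox and satellite cells (-3.91, standard error 0.89, adjusted p = 0.0275 in -Dox). The exons of Ube2c share 592 bases, 22.8% of their length, with Tnnc2 on the opposite strand. Tnnc2, troponin C of fast muscle, had 81.1, 139 and 63.7, 165730.0 and 154643 and 1686, 473 and 997 normalized counts, and the strand setting of the counting is not given in the sources used here. The part of Tnnc2 reads in the Ube2c counts was not tested. Fzr1, Cdh1, which keeps the complex active in G1 and in cells outside the cycle, had 828, 870.1 and 779, 671 and 522 and 474, 439.7 and 266. It differed by -0.47, standard error 0.43, adjusted p = 0.611 in -Dox, and in satellite cells it was lower by -1.07, standard error 0.38, adjusted p = 0.045, the smallest change among the 36 called.

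Genes that work beside the members in the same machinery were read from 5 further lists. In -Dox against +Dox, 3.04% of all genes tested were called lower and 4.66% higher by edgeR at an adjusted p under 0.05. These shares are a background for the edgeR calls only, and not for the counts by the other criteria. Of 31 other kinetochore and checkpoint subunits, 5 were lower (12 at an unadjusted p under 0.05, and 10 by DESeq2), none was higher (1 and 0) and the median log2 fold change was -1.71. The 3 with the largest called change were Oip5 (-3.52, standard error 0.77, adjusted p = 0.0241) and Mis18a (-3.37, standard error 0.67, adjusted p = 0.0151), which load Cenpa, and Ska3 (-3.10, standard error 0.42, adjusted p = 0.00216), a microtubule coupler. Of 16 genes of the anaphase-promoting complex core and its close partners, none was called by edgeR in -Dox (3 lower at an unadjusted p under 0.05, and 2 by DESeq2), with a median of 0.15. Their log2 fold changes ran from -4.14 for Fbxo5 (standard error 1.12, adjusted p = 0.0561) to 0.91 for Ube2d1 (standard error 0.44, adjusted p = 0.268). Of 13 cohesin genes, 1 was lower (2 at an unadjusted p under 0.05, and 2 by DESeq2), Esco2 (-4.36, standard error 1.02, adjusted p = 0.0322), the acetyltransferase of S phase cohesion, and the median was -0.19. Of 17 other mitotic kinases and phosphatases tested, 3 were lower (6 at an unadjusted p under 0.05, and 5 by DESeq2): Pbk (-4.95, standard error 0.74, adjusted p = 0.00359), Bora (-2.65, standard error 0.52, adjusted p = 0.0143) and Plk4 (-2.30, standard error 0.49, adjusted p = 0.0202). None of the 17 was higher (1 at an unadjusted p under 0.05, and 1 by DESeq2). Of 10 proliferation markers 9 were lower, with sums of 2473 to 3096 CPM in +Dox, 287 to 291 in -Dox and 227 to 293 in satellite cells. The sums of -Dox and satellite cells were close but differed by gene. Against -Dox, Ccnb1, Cdk1 and Tyms were lower in satellite cells (log2 fold changes -2.72, -2.27 and -1.94). Pcna, which is loaded on replicating DNA, was higher (1.74, standard error 0.29, adjusted p = 0.00148). The other 6 were not called. In that comparison 18.1% of all genes tested were lower and 20.9% higher.

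In satellite cells against +Dox, the same lists gave 20 lower and 1 higher of 31 kinetochore subunits, 9 and 1 of 16 in the anaphase-promoting complex core, 1 and 3 of 13 cohesin genes, 6 and 1 of 17 kinases and phosphatases, and 9 and 0 of 10 proliferation markers. Of all genes tested, 19.8% were lower and 25.1% higher in that comparison, so the share of cohesin genes called higher was near that of all genes. Pcna was the proliferation marker that was not called against +Dox (-0.14, standard error 0.24, adjusted p = 0.669). The difference between lists was not tested.

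The spread of the members within a group was widest in satellite cells. With 1 added to each normalized count, the highest library was a median of 3.37-fold above the lowest in satellite cells (all genes tested: 2.27), 1.43-fold in -Dox (all genes: 1.22) and 1.54-fold in +Dox (all genes: 1.74). In satellite cells 20 of the 38 (52.6%) varied by more than 3-fold, against 36.4% of all genes tested. Nuf2 varied most, on raw counts of 0, 18 and 67. In +Dox the third library stood apart by gene length. Among the 19 members with shorter exons (1201 to 2604 bases), 18 were higher in it than in the mean of the other two, by a median of 1.44-fold. Among the 19 with longer exons (2904 to 11368 bases), 8 were higher, and the median ratio was 0.917. Cenpe and Cenpf, the longest, had ratios of 0.327 and 0.337, and Cenpp and Cenpm, among the shortest, 2.42 and 2.22. Across the 38 genes of this 1 library the Pearson r of the log2 ratio with log2 exon length was -0.777 (Spearman rho -0.693), and across 6982 genes whose +Dox mean reached 500 normalized counts it was -0.558 (rho -0.579). Between the 2 -Dox libraries the r was 0.122 over the 38 genes. Genes of 1 library are not independent, and without the third +Dox library 21 members were lower in -Dox, with a median of -3.26.

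**Figure D3:**
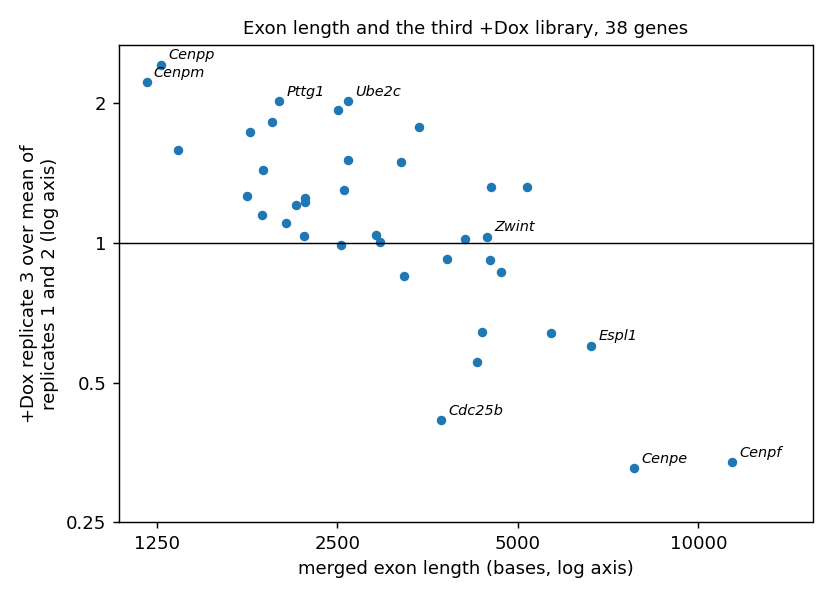
Ratio of the third +Dox library to the mean of the other two (log axis) against merged exon length in bases (log axis), 1 point per gene for the 38 genes, with a line at 1. Short genes such as Cenpp (2.42) lie above the line and long genes such as Cenpe (0.327) below it, and Zwint (1.03) lies on it.

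Promoter chromatin was read from deposited peak lists on the mm9 build, with gene starts from GENCODE M1, and peaks within 1 kb of the start were counted. Each list was called on merged replicates or merged from them, so there is no spread and no test. An ATAC-seq peak, a site open to transposase, lay at 37 of the 38 starts in each of 5 lists (97.4%): +Dox, 12 h, 24 h and 3 days without Dox, and satellite cells. Among the 12972 tested genes with a gene model, 81.5% to 87.0% had one. The exception was Cdca8, which had a peak within 2 kb of its start in every iPax7 list but not in that of satellite cells. Fold enrichment of the member peaks had a median of 38.6 in +Dox, 22.4 at 12 h, 42.8 at 24 h, 40.9 at 3 days and 24.2 in satellite cells, against 24.1, 14.2, 25.0, 23.5 and 14.5 over all genes with a peak. Relative to that median of all genes in the same list, member promoters thus stood at 1.60, 1.57, 1.71, 1.74 and 1.68. From +Dox to 3 days without Dox the relative height changed by a median factor of 1.04 (all genes: 1.03), from 0.518 for Spc24 to 1.61 for Plk1. None of 37 fell below 0.5, where 2.06% of all genes did. The RNA of the 38 genes had its median log2 fold change of -3.32 in the same comparison of conditions.

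**Figure D4:**
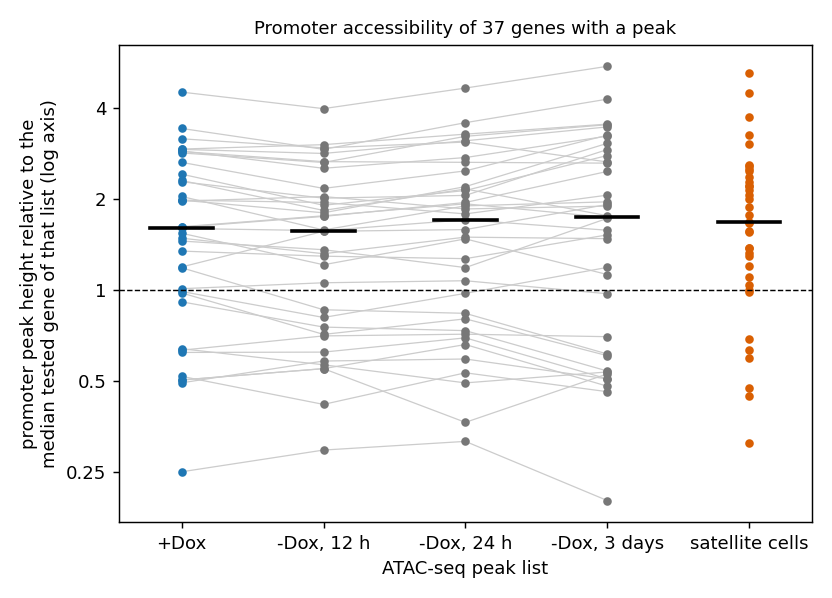
Height of the promoter ATAC-seq peak relative to the median tested gene of the same list (log axis), 1 point per gene for 37 genes, in 5 lists, with grey lines joining each gene over the iPax7 lists and black bars for medians. The medians lie between 1.57 and 1.74, and the dashed line at 1 is the median gene.

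H3K4me3, a mark of active starts, lay at all 38 starts in both +Dox and -Dox (all genes: 84.3% and 89.2%). H3K27Ac, a mark of active promoters and enhancers, lay at 35 of 38 (92.1%) in +Dox and 27 (71.1%) in -Dox, against 69.2% and 65.3% of all genes. Of the 35, 8 had no peak in -Dox (22.9%), against 9.83% of all genes with a +Dox peak, and no member gained one. The 8 were Tpx2, Aurkb, Bub1b, Cenpi, Cenpm, Nuf2, Spc25 and Espl1. The starts of Cdca8, Cdc25c and Cenpf had no H3K27Ac peak in either list. The whole H3K27Ac list was shorter in -Dox, with 90168 peaks against 119528, and the part of this in the 8 lost peaks was not tested. H3K4me1 lay at 38 and 37 starts. The polycomb mark H3K27me3 lay at 1 start in +Dox, that of Bub3, and at 0 in -Dox, against 17.98% and 15.4% of all genes.

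Of the 2455 Pax7 sites found in +Dox, 1 lay within 1 kb of a member's start (2.63% of members, against 1.89% of all genes). It was chr13:49747653-49748853 (mm9) at Cenpp, which starts at 49748124 on the minus strand. Cenpp is a member that fell in -Dox by -2.33, standard error 0.60, adjusted p = 0.0444. The next nearest site lay 7.58 kb from Cdca5. Over the 38 genes the nearest Pax7 site was a median of 455 kb away, against 321 kb over all genes, and 4 members (10.5%) had one within 50 kb, against 12.3%.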

How the data were processed

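The deposited RNA-seq files hold, for each library, unnormalized HTSeq counts by gene symbol. The labels' processing notes name Trimmomatic 0.32, TopHat2 2.0, Bowtie2, HTSeq 0.6, MACS2 2.0.10 and edgeR. The 5 lines for reads on no single gene were left out of library sizes. Counts were tested in edgeR 4.0.16 (R 4.3.3) with glmQLFit and glmQLFTest after TMM and filterByExpr, with 1 mean per group over all 8 libraries, Benjamini-Hochberg adjustment over 14836 genes and a call at an adjusted p under 0.05. DESeq2 1.42.0 was an alternative. Normalized counts are counts over the TMM effective library size times the geometric mean of these sizes. A standard error is the log2 fold change over the square root of F.

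The authors called ATAC-seq peaks with MACS2 on merged replicates. The deposited lists give a fold enrichment (a ratio over background) and a score of 10 times the −log10 q-value. Histone and Pax7 lists give positions only. Histone replicates were merged before calling, and Pax7 sites were kept by the authors where replicates with Dox shared them and no replicate without Dox had them. Gene starts and merged exon lengths came from GENCODE M1 (NCBIM37, which is mm9) for protein-coding symbols with 1 gene.

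All 39 listed genes are named. Values per library are given for the largest and smallest change of each class in -Dox, members that missed the test there and members called between satellite cells and -Dox. From the other lists, up to 3 called genes with the largest change are named, and the ends of the range for the anaphase-promoting complex list. Scripts were tested on simulated counts. The members and lists were chosen with earlier results of these data known. C2C12 and myotube files were not used.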

Additional observations from a re-analysis of the deposited data

How the results depend on the processing

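Every member kept its sign in -Dox against +Dox under all alternatives run, and the count of lower members was 28 to 34 under other scalings, filters, DESeq2 and a fit of the 2 groups alone, 21 with a replicate block (a term for the library number), and 10 to 21 with 1 library left out (10 without the first and 13 without the second -Dox library, where the lone sample is assumed to vary like the other groups; 18 without the second +Dox library). Same-numbered libraries did not deviate together over all genes tested (r from -0.040 to 0.027). Deviations were taken from means of only 2 or 3 libraries, so these r cannot show whether the numbers pair anything. Why calls were lost under the block was not tested. Under the block 34 were lower in satellite cells than in +Dox, and 9 lower and 2 higher than in -Dox. Satellite cells against +Dox gave 33 to 36 lower members throughout, with medians of -4.38 (without the first satellite cell library) to -3.91 with 1 library left out. Against -Dox, 6 were lower in a fit of the 2 groups alone. With 1 library left out, 6 to 15 were lower (6 without the second -Dox library, 7 without the third satellite cell library) and 0 to 2 higher (0 without the first -Dox library, 1 without the second). Leaving out 1 library turned the sign of 11 members that were not called there: Bub1 -0.46 to 1.81, Bub1b -0.0924 to 2.58, Cdc20 -0.76 to 0.00555, Cenpa -0.71 to 0.34, Cenpe -1.66 to 0.033, Cenpf -0.94 to 0.58, Cenpi -0.0587 to 1.26, Cenpk -0.98 to 0.11, Incenp -0.27 to 2.30, Nuf2 -2.82 to 0.21 and Ttk -4.85 to 0.0509. Against +Dox it turned that of Cenpq (-0.39 to 0.0244). Shares of members with an ATAC-seq peak within 2 kb became 100% in the 4 iPax7 lists, and the H3K27me3 share in +Dox was 0% within 500 bases. The upper 50% of peaks by score was not run for lists without scores. Groups of 2 or 3 libraries and low satellite cell counts limit the precision.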
